A study of Homo sapiens with 4 samples.

Results

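The 46 genes described here encode the machinery that copies DNA and supplies its building blocks: 11 that license replication origins, 6 that activate the replicative helicase, 9 subunits of DNA polymerases and primase, 6 of the sliding clamp and its loader, 3 of the single-strand binding complex, 2 enzymes that mature lagging-strand fragments, 4 enzymes of nucleotide supply, 4 factors that copy chromatin and DNA methylation, and the transcription factor E2F1. They were taken as a list by gene symbol, and all 46 were found among the 58735 genes of each library. This list and those set beside it were chosen with earlier results of these data known. Their counts, and the shares of all genes beside them, are therefore descriptions and not independent support. All 46 reached 1 FPKM (fragments per kilobase, a level corrected for gene length and sequencing depth) in at least 1 library, as did 13678 genes in all, 10896 of them protein coding, which are called measured here. The libraries came from OMM2.3, an established uveal melanoma cell line, and 1 library was made for each group: cells given CCCP and DHA together (the combination), cells given CCCP, cells given DHA, and control cells. CCCP is a protonophore that collapses the mitochondrial membrane potential, and the labels do not spell out DHA. The sources used here do not give doses, treatment times or what the control cells received. All groups share the one cell line, so cultures from other tumours are not represented.

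A replication origin is licensed in G1, when the origin recognition complex, CDC6 and CDT1 load the MCM helicase onto DNA, and it fires in S phase, when CDC45 and the GINS complex join the helicase. DNA polymerase alpha and primase then start each strand, RFC loads the PCNA clamp, and polymerases delta and epsilon extend the strands. Most of these genes are textbook targets of E2F transcription factors, which the retinoblastoma protein family restrains outside the G1 to S transition. Their transcripts are therefore abundant in proliferating cells.

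Reads summed over genes ranged between 16900411 and 18937286 per library, and the 46 genes held 55 or more reads each in every library. With 1 library per group there was no spread between cultures to set a difference against. Each interval printed beside a fold difference is an exact 95% binomial interval from read counts and covers counting error only. The line was checked against lineage markers: MITF, PMEL, GPNMB, RAB27A and RAB38 were measured among 11 melanocyte markers, whereas the other 6, among them MLANA, TYR, DCT and SOX10, stayed under 1 FPKM. None of 7 leukocyte and 4 endothelial markers reached 1 FPKM. Of 8 fibroblast markers 3 were measured (FAP, COL1A1 and PDGFRB), and the list summed to 8.99 FPKM with the combination, 20.3 with CCCP, 18.6 with DHA and 32.6 in control. These values were lowest with the combination too, and their part in the results was not tested.

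Replication and nucleotide genes were lower in both libraries that received CCCP, and lowest in the combination. Ratios were taken on log2(FPKM + 0.5), which understates the change of low genes. The median log2 ratio of the 46 genes to control was -0.97 with the combination, -0.50 with CCCP and -0.10 with DHA, where all measured genes had medians of 0.01, 0 and 0. With the combination 22 of the 46 (47.8%) were at least 2-fold lower than control, beside 5.44% of all measured genes and 3.73% of measured protein-coding genes. With CCCP alone 2 of 46 (4.35%) were at least 2-fold lower, beside 2.32% and 0.569%, and with DHA alone 0 of 46, beside 1.86% and 0.0734%. A smaller size rule of 1.5-fold was met by 38 of 46 (82.6%) with the combination, where 12.7% of all measured genes met it. It was met by 15 of 46 (32.6%) with CCCP and by 0 of 46 with DHA, beside 6.46% and 4.15% of all measured genes. Below control lay 45 members with the combination, 44 with CCCP and 33 with DHA, against 49.1%, 50.9% and 49.4% of measured protein-coding genes. With libraries rescaled to equal summed FPKM the count for DHA was 40, E2F1, GMNN, MCM2, MCM7, ORC1, POLA1 and POLE2 being the members that turned, while no member turned for the combination or CCCP. The 3 comparisons share the control library. Fold differences given below with intervals are ratios of FPKM without the pseudocount. A few members are therefore past 2-fold there but are not in the counts above. Among them are GMNN, CDC45, ORC1 and POLA2 with the combination, and CDC6 with CCCP. Likewise POLA2 with DHA, at 1.74-fold (1.31 to 2.32) lower, is past 1.5-fold there but not in the count of 0. In bulk RNA, fewer cells in S phase and less of each transcript per cell cannot be told apart.

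**Figure D1:**
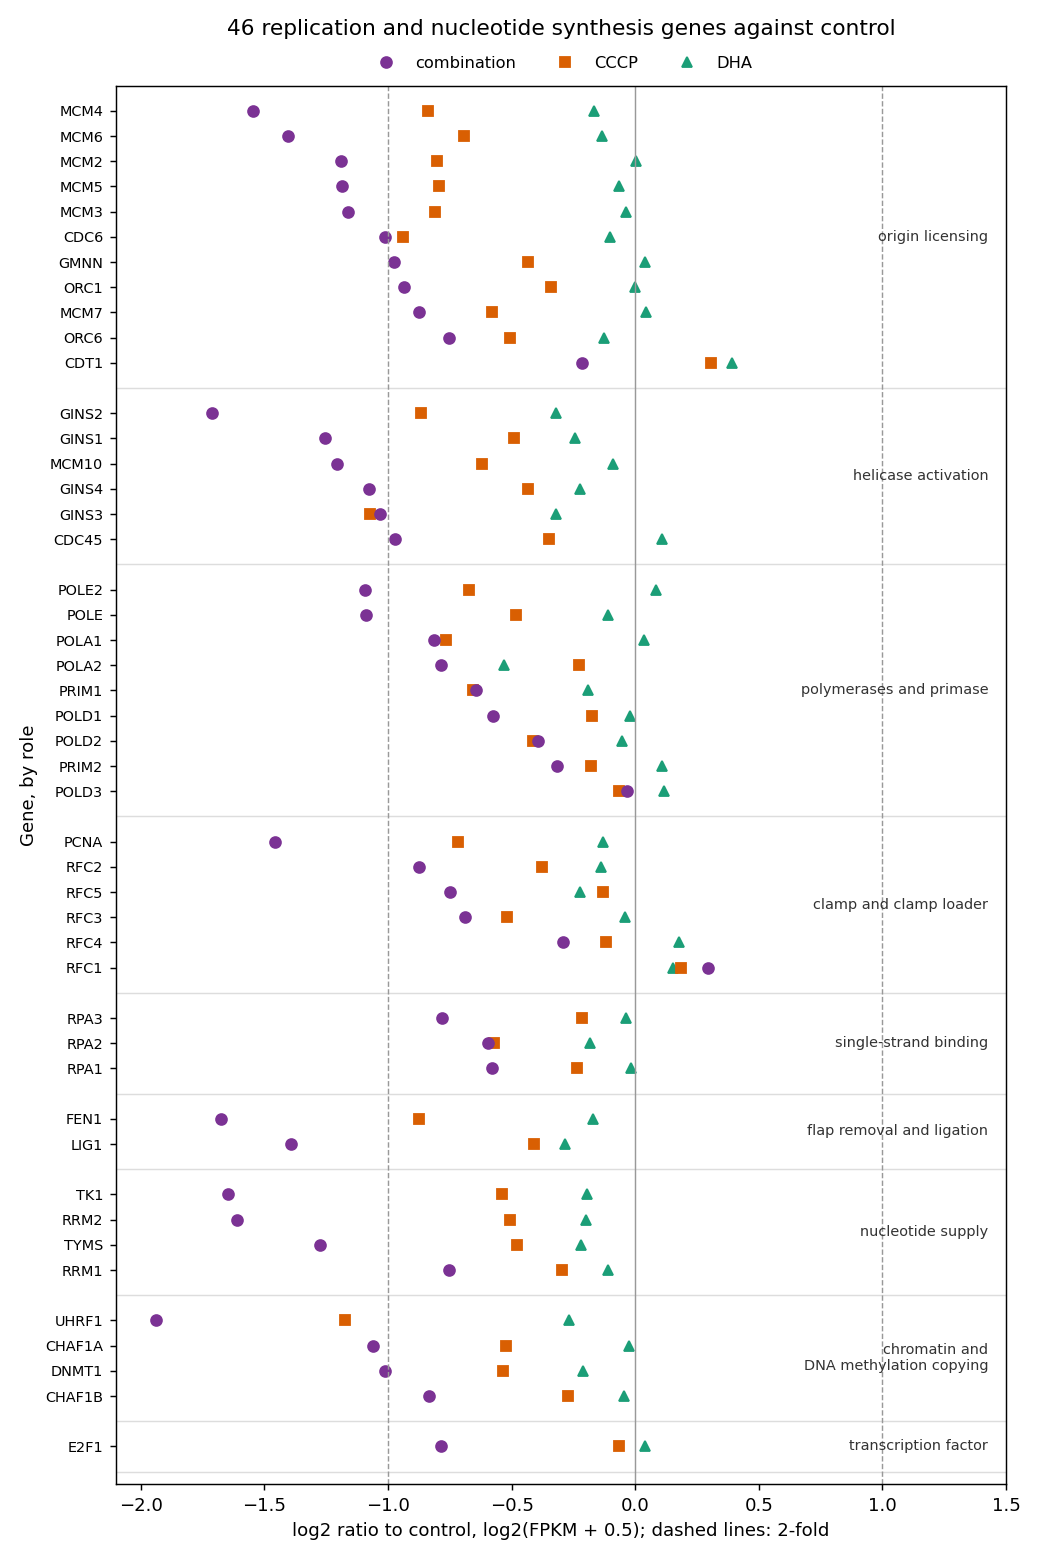
Each row is 1 of the 46 genes, grouped by role, and the horizontal axis gives its log2 ratio to control on log2(FPKM + 0.5), with dashed lines at 2-fold. Circles (combination) lie left of zero for 45 genes and squares (CCCP) for 44, while triangles (DHA) lie between -0.53 and 0.39.

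**Figure D2:**
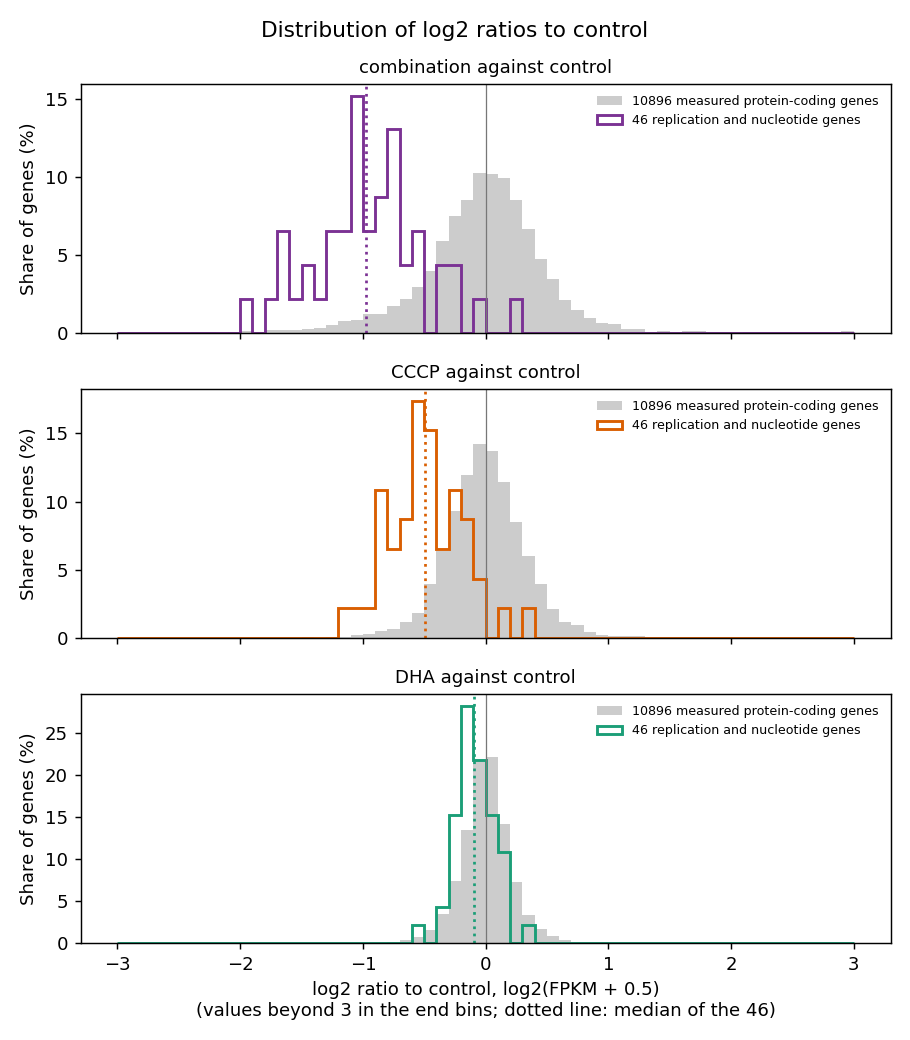
Histograms of log2 ratios to control for the 46 genes (outline) over those of 10896 measured protein-coding genes (grey), as percent of each set, with 1 panel per treatment. The dotted medians of the 46 lie at -0.97 with the combination, -0.50 with CCCP and -0.10 with DHA, against grey distributions centred near 0.

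The lowest ratio to control belonged to UHRF1, which recognises hemimethylated DNA behind the fork (ENSG00000276043, chromosome 19, 4903080 to 4962154 on GRCh38). It was followed among the 5 lowest by GINS2, FEN1, TK1 and RRM2. Since the genes were lower together and many are known E2F targets, their promoters were searched for the E2F motif, spelled here as TTTCGCGC, TTTGGCGC, TTTCCCGC or TTTGCCGC on either strand, in the 300 bases from 250 before to 50 after the gene start (RefSeq, GRCh38.p14). Matches of different spellings on the 2 strands can overlap. The table had no entry for MCM4, MCM5, GINS4, POLD3, RPA2 and RPA3. Of the 40 members with a promoter in it, 21 (52.5%) held the motif, as did 3.99% of all 27305 genes there. It was present in 14 of the 19 such members that were at least 2-fold lower with the combination and in 7 of the other 21. This describes the windows and not factor binding. The split used ratios with the pseudocount. Without it GMNN and POLA2, which held the motif, and ORC1 and CDC45, which did not, were also at least 2-fold lower. Many members are known E2F targets, so a share above that of all genes could be foreseen from their choice. The genes set beside them were not limited to measured ones or matched for base composition. Whether the motif goes with lower levels was not tested. The CCAAT box (CCAAT on either strand) was found in 25 of the 40 members and 39.7% of all genes. The CHR element (TTTGAA on either strand), known from promoters of mitotic genes, was found in 1 of the 40 and in 18.2% of all genes.

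The sequences below belong to the 5 members with the lowest ratio of combination to control whose promoter held an E2F motif. Each covers the 250 bases before a RefSeq gene start. They are written 5′ to 3′ on the strand of the gene, with the E2F motif in capitals, from RefSeq on GRCh38.p14. They lie at chr19:4909251-4909500 on the plus strand (UHRF1), chr16:85688955-85689204 on the minus strand (GINS2), chr20:5126623-5126872 on the minus strand (PCNA), chr2:135876444-135876693 on the minus strand (MCM6) and chr19:48170345-48170594 on the minus strand (LIG1). 
UHRF1: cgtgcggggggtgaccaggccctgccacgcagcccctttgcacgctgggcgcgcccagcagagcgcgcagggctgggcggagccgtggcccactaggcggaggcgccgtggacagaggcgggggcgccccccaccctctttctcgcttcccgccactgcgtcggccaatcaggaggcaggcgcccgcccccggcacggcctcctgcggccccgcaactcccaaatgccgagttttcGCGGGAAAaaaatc
GINS2: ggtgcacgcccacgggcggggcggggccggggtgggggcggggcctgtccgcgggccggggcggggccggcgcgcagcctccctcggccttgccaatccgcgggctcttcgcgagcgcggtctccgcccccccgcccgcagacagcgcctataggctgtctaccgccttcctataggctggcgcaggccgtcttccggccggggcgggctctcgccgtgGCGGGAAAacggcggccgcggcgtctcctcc
PCNA: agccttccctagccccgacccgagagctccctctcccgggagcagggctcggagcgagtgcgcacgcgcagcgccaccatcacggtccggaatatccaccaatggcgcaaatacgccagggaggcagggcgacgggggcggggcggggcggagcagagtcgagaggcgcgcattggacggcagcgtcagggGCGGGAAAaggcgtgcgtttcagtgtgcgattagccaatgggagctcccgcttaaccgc
MCM6: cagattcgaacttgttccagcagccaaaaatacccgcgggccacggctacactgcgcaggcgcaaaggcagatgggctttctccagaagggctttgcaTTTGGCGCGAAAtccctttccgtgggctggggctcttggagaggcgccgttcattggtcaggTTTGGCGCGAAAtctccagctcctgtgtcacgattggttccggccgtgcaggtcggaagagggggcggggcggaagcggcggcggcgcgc
LIG1: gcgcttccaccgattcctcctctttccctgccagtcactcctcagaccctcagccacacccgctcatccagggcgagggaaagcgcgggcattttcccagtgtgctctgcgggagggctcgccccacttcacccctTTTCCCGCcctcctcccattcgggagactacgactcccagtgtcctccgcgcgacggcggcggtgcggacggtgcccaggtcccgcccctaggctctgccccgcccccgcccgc

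The motif began 14 bases before the RefSeq gene start in UHRF1, 31 in GINS2, 59 in PCNA and 114 in LIG1. MCM6 held 4 matches in 2 overlapping pairs, which began 152 and 148, and 90 and 86, bases before the start. UHRF1 has 3 windows in the table, and the one that held the motif is shown. These starts can differ from the GENCODE gene bounds. The stretches shown for UHRF1, GINS2 and LIG1 lie inside those bounds (4903080 to 4962154, 85676198 to 85690073 and 48115445 to 48170603).

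Of the 11 origin licensing genes 6 were at least 2-fold lower than control with the combination, beside 5.44% of all measured genes. The median log2 ratio of the 11 was -1.01 with the combination, -0.69 with CCCP and -0.04 with DHA. The 6 subunits of the MCM helicase, MCM2 to MCM7, were between 1.85 (MCM7) and 3.0 (MCM4) fold lower than control with the combination. Between 1.5 (MCM7) and 1.81 (MCM4) fold was the span with CCCP alone. MCM4 stood at 11.7 FPKM with the combination, 19.3 with CCCP, 31.0 with DHA and 34.9 in control, and was 3.0-fold (2.83 to 3.19) lower than control with the combination. MCM2 stood at 9.34 FPKM with the combination, 12.4 with CCCP, 22.0 with DHA and 21.9 in control. Its DHA and control libraries did not differ beyond counting error, at a ratio of 1.00 (0.941 to 1.07), while both libraries with CCCP were below them. MCM3 stood at 18.3 FPKM with the combination, 23.5 with CCCP, 40.6 with DHA and 41.7 in control. For MCM6 the levels were 8.34 FPKM with the combination, 14.0 with CCCP, 20.8 with DHA and 22.9 in control. MCM5 and MCM3 followed MCM2 in having DHA close to control. MCM7 was the most abundant of the 6 in every library, at 26.2 FPKM with the combination, 32.2 with CCCP, 49.8 with DHA and 48.4 in control, and MCM5 the least, at 6.81 FPKM with the combination, 9.09 with CCCP, 15.4 with DHA and 16.1 in control. The highest level over the lowest among the 6 was 3.84 with the combination, 3.54 with CCCP, 3.23 with DHA and 3.0 in control, on the FPKM scale, which is per length.

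CDC6, the ATPase that loads the helicase with CDT1, stood at 4.63 FPKM with the combination, 4.89 with CCCP, 9.14 with DHA and 9.85 in control. Both libraries with CCCP lay at about the same low level, and the other 2 well above it. The combination was 2.13-fold (1.90 to 2.38) lower than control and CCCP alone 2.01-fold (1.80 to 2.25) lower, while the combination against CCCP gave 1.06-fold (0.925 to 1.21) lower, an interval that held 1. CDT1 (ENSG00000167513, chromosome 16, 88803213 to 88809258 on GRCh38) ran otherwise, at 9.08 FPKM with the combination, 13.3 with CCCP, 14.1 with DHA and 10.6 in control. It was 1.17-fold (1.04 to 1.31) lower with the combination than in control, 1.25-fold (1.12 to 1.39) higher with CCCP and 1.33-fold (1.20 to 1.47) higher with DHA. GMNN, whose product geminin binds and inhibits CDT1 after licensing, stood at 7.35 FPKM with the combination, 10.9 with CCCP, 15.4 with DHA and 14.9 in control. The level of CDT1 over that of GMNN was thus 1.24 with the combination, 1.22 with CCCP, 0.919 with DHA and 0.712 in control. ORC1, the subunit of the origin recognition complex whose level cycles, stood at 2.44 FPKM with the combination, 3.94 with CCCP, 5.13 with DHA and 5.13 in control, and was 2.10-fold (1.71 to 2.59) lower than control with the combination. ORC6, a smaller subunit, stood at 4.72 FPKM with the combination, 5.70 with CCCP, 7.57 with DHA and 8.30 in control. The combination was the lowest library for both.

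**Figure D3:**
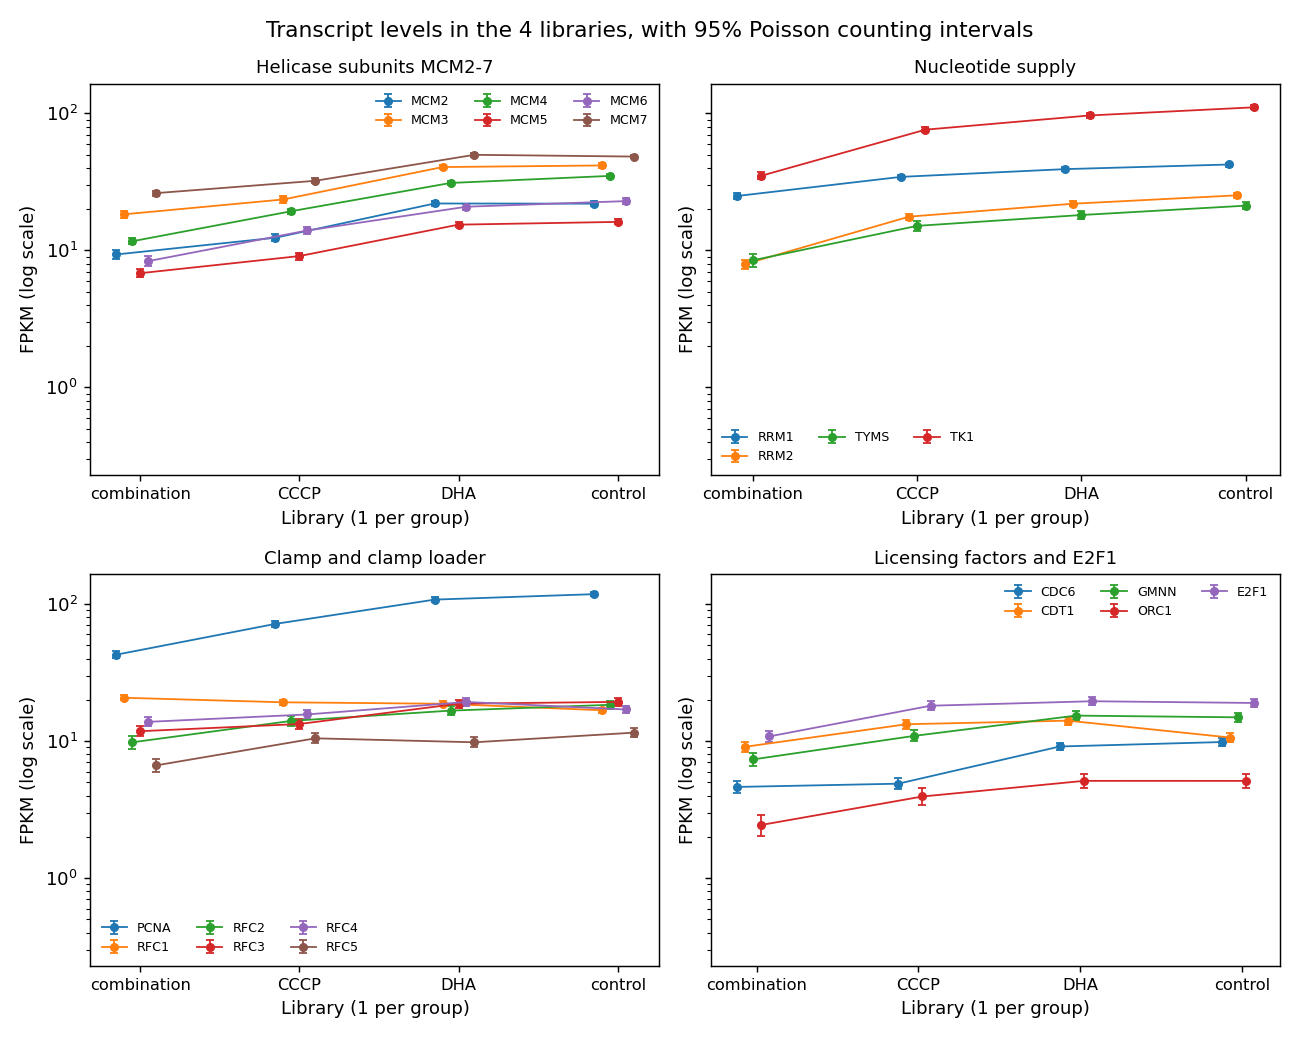
FPKM on a log axis in the 4 libraries (combination, CCCP, DHA, control) for helicase subunits, nucleotide enzymes, the clamp with its loader, and licensing factors with E2F1. Bars are 95% Poisson counting intervals. PCNA lies at 42.7 FPKM with the combination and 118 in control, TK1 at 35.0 with the combination and 111 in control, RFC1 lies between 16.8 and 20.7 throughout, and CDC6 lies at 4.63 with the combination and 4.89 with CCCP.

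The genes that turn the loaded helicase into an active one were all lower with the combination and with CCCP. Of the 6, 5 were at least 2-fold lower than control with the combination, beside 5.44% of all measured genes. The median log2 ratio of the 6 was -1.14 with the combination, -0.55 with CCCP and -0.23 with DHA. GINS2, a subunit of the GINS complex whose promoter is shown above, stood at 2.86 FPKM with the combination, 5.54 with CCCP, 8.32 with DHA and 10.5 in control. It was 3.67-fold (3.09 to 4.39) lower than control with the combination, 1.90-fold (1.65 to 2.18) lower with CCCP and 1.26-fold (1.12 to 1.42) lower with DHA. GINS1 stood at 4.54 FPKM with the combination, 8.06 with CCCP, 9.64 with DHA and 11.5 in control. GINS4, a further GINS subunit, showed the same order of libraries, at 1.66 FPKM with the combination, 2.88 with CCCP, 3.41 with DHA and 4.06 in control. GINS3 differed from these in having its 2 CCCP libraries alike, at 2.20 FPKM with the combination, 2.12 with CCCP, 3.92 with DHA and 5.02 in control. Of the GINS transcripts, GINS1 was the most abundant in all 4 libraries. CDC45, which binds the helicase with GINS, stood at 4.15 FPKM with the combination, 6.67 with CCCP, 9.34 with DHA and 8.63 in control. With DHA alone it was 1.08-fold (0.950 to 1.23) higher, an interval that held 1, and with the combination 2.08-fold (1.76 to 2.46) lower. MCM10, which helps the helicase to open, stood at 1.85 FPKM with the combination, 3.03 with CCCP, 4.59 with DHA and 4.92 in control.

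Polymerase and primase subunits lay nearer to control than the licensing and helicase activation genes. Their median log2 ratio was -0.65 with the combination, -0.41 with CCCP and -0.02 with DHA. With the combination 2 of the 9, POLE and POLE2, were at least 2-fold lower, beside 5.44% of all measured genes. Nothing is read about the group from so few genes. The log2 ratios of the 9 to control ran between -1.09 and -0.03 with the combination. POLE, the catalytic subunit of the leading-strand polymerase epsilon, stood at 2.58 FPKM with the combination, 4.18 with CCCP, 5.57 with DHA and 6.04 in control, and was 2.34-fold (2.15 to 2.55) lower than control with the combination. POLE2, its second subunit, stood at 2.16 FPKM with the combination, 3.06 with CCCP, 5.50 with DHA and 5.16 in control. In the lagging-strand polymerase delta, the catalytic gene POLD1 stood at 13.4 FPKM with the combination, 17.8 with CCCP, 19.9 with DHA and 20.2 in control. POLD2, an accessory subunit, stood at 28.1 FPKM with the combination, 27.8 with CCCP, 35.8 with DHA and 37.1 in control, with both libraries that had CCCP alike. POLD3 stood at 6.35 FPKM with the combination, 6.21 with CCCP, 7.10 with DHA and 6.51 in control. It was the member nearest to control with the combination, 1.02-fold (0.918 to 1.14) lower, and its intervals held 1 in all 5 comparisons. The level of POLD1 over that of POLE was 5.19 with the combination, 4.26 with CCCP, 3.57 with DHA and 3.34 in control.

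Polymerase alpha and primase lay down the primers, and for 3 of their 4 genes, POLA1, PRIM1 and PRIM2, no difference between the combination and CCCP was detectable at this depth. The catalytic gene POLA1 stood at 2.73 FPKM with the combination, 2.84 with CCCP, 5.33 with DHA and 5.18 in control, and was 1.90-fold (1.65 to 2.18) lower with the combination and 1.82-fold (1.59 to 2.10) lower with CCCP than in control. PRIM1, the primase itself, stood at 2.35 FPKM with the combination, 2.33 with CCCP, 3.41 with DHA and 3.96 in control. Its large partner PRIM2 stood at 4.95 FPKM with the combination, 5.50 with CCCP, 6.83 with DHA and 6.30 in control. POLA2 was the least abundant of the 46 in every library, at 0.557 FPKM with the combination, 1.06 with CCCP, 0.760 with DHA and 1.32 in control. These levels rest on 55 reads with the combination, 101 with CCCP, 75 with DHA and 147 in control. POLA2 was also the member lowest with DHA alone, 1.74-fold (1.31 to 2.32) lower than control. On FPKM without the pseudocount it was 2.37-fold (1.73 to 3.29) lower with the combination, past the size rule that it missed on the log2(FPKM + 0.5) scale. In its exons 35.1% of the bases are shared with AP000944.2, a gene listed at 0.109 FPKM or less.

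The clamp gene was lower in both libraries with CCCP, and the loader genes were unequally so. PCNA, the clamp that holds polymerases on DNA (ENSG00000132646, chromosome 20, 5114953 to 5126626 on GRCh38), was the most abundant member in control, at 42.7 FPKM with the combination, 71.7 with CCCP, 108 with DHA and 118 in control. It was 2.76-fold (2.58 to 2.96) lower than control with the combination and 1.65-fold (1.55 to 1.75) lower with CCCP. Of the small loader subunits, RFC2 stood at 9.80 FPKM with the combination, 14.1 with CCCP, 16.7 with DHA and 18.4 in control. RFC3 stood at 11.8 FPKM with the combination, 13.3 with CCCP, 18.8 with DHA and 19.3 in control. RFC5, the least abundant of the 5 loader genes in every library, stood at 6.65 FPKM with the combination, 10.5 with CCCP, 9.81 with DHA and 11.5 in control. In these 3 genes the combination lay below the other libraries. RFC4 stood at 13.8 FPKM with the combination, 15.7 with CCCP, 19.3 with DHA and 17.0 in control, 1.23-fold (1.12 to 1.36) lower with the combination and 1.13-fold (1.04 to 1.24) higher with DHA than in control. RFC1, the large subunit (ENSG00000035928, chromosome 4, 39287456 to 39366375 on GRCh38), was the one member above control in all 3 treated libraries, at 20.7 FPKM with the combination, 19.2 with CCCP, 18.7 with DHA and 16.8 in control. It was 1.23-fold (1.16 to 1.31) higher than control with the combination, 1.14-fold (1.08 to 1.21) higher with CCCP and 1.11-fold (1.05 to 1.18) higher with DHA. The loader subunits lay within 3.12-fold of each other with the combination and within 1.68-fold in control.

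Genes of the single-strand binding complex RPA, which also serves DNA repair, lay nearer to control than most. None of the 3 was at least 2-fold lower with the combination, beside 5.44% of all measured genes, a count too small to read. RPA1, the large subunit, stood at 17.4 FPKM with the combination, 22.2 with CCCP, 25.9 with DHA and 26.2 in control. RPA2 stood at 11.5 FPKM with the combination, 11.7 with CCCP, 15.5 with DHA and 17.6 in control, with the combination and CCCP alike. RPA3, the small subunit, stood at 4.55 FPKM with the combination, 6.98 with CCCP, 7.95 with DHA and 8.19 in control, with the combination below the rest. The lagging-strand enzymes lay lower with the combination. FEN1, which cuts the flaps of lagging-strand fragments (ENSG00000168496, chromosome 11, 61792637 to 61797244 on GRCh38), stood at 11.0 FPKM with the combination, 19.6 with CCCP, 32.2 with DHA and 36.3 in control. It was 3.29-fold (2.97 to 3.65) lower than control with the combination and 1.85-fold (1.71 to 2.02) lower with CCCP. LIG1, the ligase that seals the fragments, stood at 5.64 FPKM with the combination, 11.6 with CCCP, 12.8 with DHA and 15.6 in control. The combination was 2.77-fold (2.53 to 3.03) lower than control and 2.06-fold (1.87 to 2.27) lower than CCCP for LIG1.

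Enzymes of nucleotide supply were lower with CCCP and lower still with the combination. Their median log2 ratio to control was -1.44 with the combination, -0.49 with CCCP and -0.20 with DHA. TK1, the cytosolic thymidine kinase of S phase (ENSG00000167900, chromosome 17, 78174075 to 78187233 on GRCh38), stood at 35.0 FPKM with the combination, 76.0 with CCCP, 96.5 with DHA and 111 in control. TK1 was 3.16-fold (2.96 to 3.38) lower than control with the combination, 1.46-fold (1.38 to 1.53) lower with CCCP and 1.15-fold (1.09 to 1.20) lower with DHA. RRM2, the S phase subunit of ribonucleotide reductase (ENSG00000171848, chromosome 2, 10120698 to 10131419 on GRCh38), stood at 7.94 FPKM with the combination, 17.6 with CCCP, 21.9 with DHA and 25.2 in control. RRM2 was 3.18-fold (2.93 to 3.46) lower than control with the combination and 1.43-fold (1.34 to 1.52) lower with CCCP. RRM1, the large subunit with the catalytic site, stood at 24.9 FPKM with the combination, 34.4 with CCCP, 39.2 with DHA and 42.3 in control, and the level of RRM2 over that of RRM1 was 0.319 with the combination, 0.513 with CCCP, 0.559 with DHA and 0.596 in control. TYMS, the thymidylate synthase, stood at 8.47 FPKM with the combination, 15.1 with CCCP, 18.1 with DHA and 21.2 in control, and was 2.50-fold (2.22 to 2.83) lower than control with the combination. Reads of TYMS are uncertain, since 39.1% of its exon bases overlap ENOSF1 on the other strand and the kit does not mark strand. ENOSF1 was listed at 3.63 FPKM or less. RRM2 shares 20.2% of its exon bases with AC007240.1 on the same strand, listed at 0.319 FPKM or less. MCM2 shares 22.7% and GINS4 21.2% with antisense genes listed at 0.209 and 0.293 FPKM or less. Further members have overlaps of a smaller share, some with genes listed at higher levels. On the other strand RFC5 shares 5.7% of its exon bases with WSB2, listed at 24.3 FPKM or less. FEN1 shares 6.7% with TMEM258 (12.7 FPKM or less) and RFC4 0.70% with EIF4A2 (173 FPKM or less). RRM2, PCNA and RPA2 have 3 annotated pseudogenes each and TYMS has 2, with which reads could be shared.

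Among the factors that copy chromatin, UHRF1 stood at 6.37 FPKM with the combination, 11.2 with CCCP, 21.4 with DHA and 25.8 in control. It was 4.05-fold (3.70 to 4.45) lower than control with the combination, 2.31-fold (2.15 to 2.49) lower with CCCP and 1.21-fold (1.14 to 1.28) lower with DHA. DNMT1, the methyltransferase that UHRF1 recruits to newly made DNA, stood at 10.2 FPKM with the combination, 14.4 with CCCP, 18.2 with DHA and 21.1 in control, 2.06-fold (1.95 to 2.18) lower than control with the combination. The histone chaperone genes CHAF1A and CHAF1B encode subunits of CAF-1, which deposits histones behind the fork. CHAF1A stood at 6.28 FPKM with the combination, 9.34 with CCCP, 13.4 with DHA and 13.6 in control. CHAF1B stood at 2.79 FPKM with the combination, 4.35 with CCCP, 5.18 with DHA and 5.36 in control, lowest with the combination as were the other 3 genes of this group. E2F1, which activates many of these genes and is an E2F target itself (ENSG00000101412, chromosome 20, 33675683 to 33686404 on GRCh38), stood at 10.8 FPKM with the combination, 18.1 with CCCP, 19.5 with DHA and 19.0 in control. Its CCCP, DHA and control libraries lay together and the combination lay below them. The ratio of E2F1 to control was 0.955 (0.866 to 1.05) with CCCP and 1.03 (0.937 to 1.13) with DHA, and it was 1.76-fold (1.57 to 1.97) lower with the combination.

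The combination was also set against each compound alone. In the combination against CCCP the median log2 ratio of the 46 was -0.53, and 41 lay below, although CDC6, POLA1 and RPA2 turned direction with libraries rescaled to equal summed FPKM. On log2(FPKM + 0.5) TK1 and RRM2 were at least 2-fold lower, which is 2 of 46 (4.35%) beside 4.94% of all measured genes and 2.85% of protein-coding ones. Without the pseudocount TK1 was 2.17-fold (2.02 to 2.33) and RRM2 2.22-fold (2.03 to 2.43) lower. LIG1 was past 2-fold there too, at 2.06-fold (1.87 to 2.27) lower. At 1.5-fold the count was 18 of 46 (39.1%) beside 12.4% of all measured genes. For 8 members, CDC6, GINS3, POLA1, PRIM1, PRIM2, POLD2, POLD3 and RPA2, the interval of this ratio held 1, so that no further difference was detectable at this depth. In DHA against control the intervals of 24 of the 46 members held 1. They lay wholly below 1 for 19 (41.3%), beside 17.2% of all measured genes, and wholly above for 3 (CDT1, RFC1 and RFC4), beside 18.1%. These shares also depend on how many reads a gene has, which was not matched.

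In the combination against DHA the median log2 ratio was -0.88, and 45 of 46 members lay below, RFC1 being the exception. At least 2-fold lower were 19 of 46 (41.3%), beside 3.63% of all measured genes and 1.96% of protein-coding ones, and 35 of 46 (76.1%) at 1.5-fold, beside 9.38%. The difference made by CCCP can thus be read in 2 pairs of libraries that share none, without DHA (CCCP against control) and with DHA (combination against DHA). It was negative in both pairs for 44 of 46 members, positive in both for RFC1, and opposite for CDT1, where 32.3% of measured protein-coding genes were negative in both. Over the 46 members the Pearson correlation of these 2 log2 ratios was 0.67, and over 10896 protein-coding genes 0.44. These are descriptions across genes of 4 libraries with 1 depth each, and genes are not independent replicates. The ratio was more negative with DHA present for 41 of the 46. For DHA, the readings without CCCP (DHA against control) and with it (combination against CCCP) were negative in both for 30 members, positive in both for 2 and opposite for 14, where 31.5% of protein-coding genes were negative in both. Their correlation was 0.37 over the members and 0.52 over protein-coding genes.

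**Figure D4:**
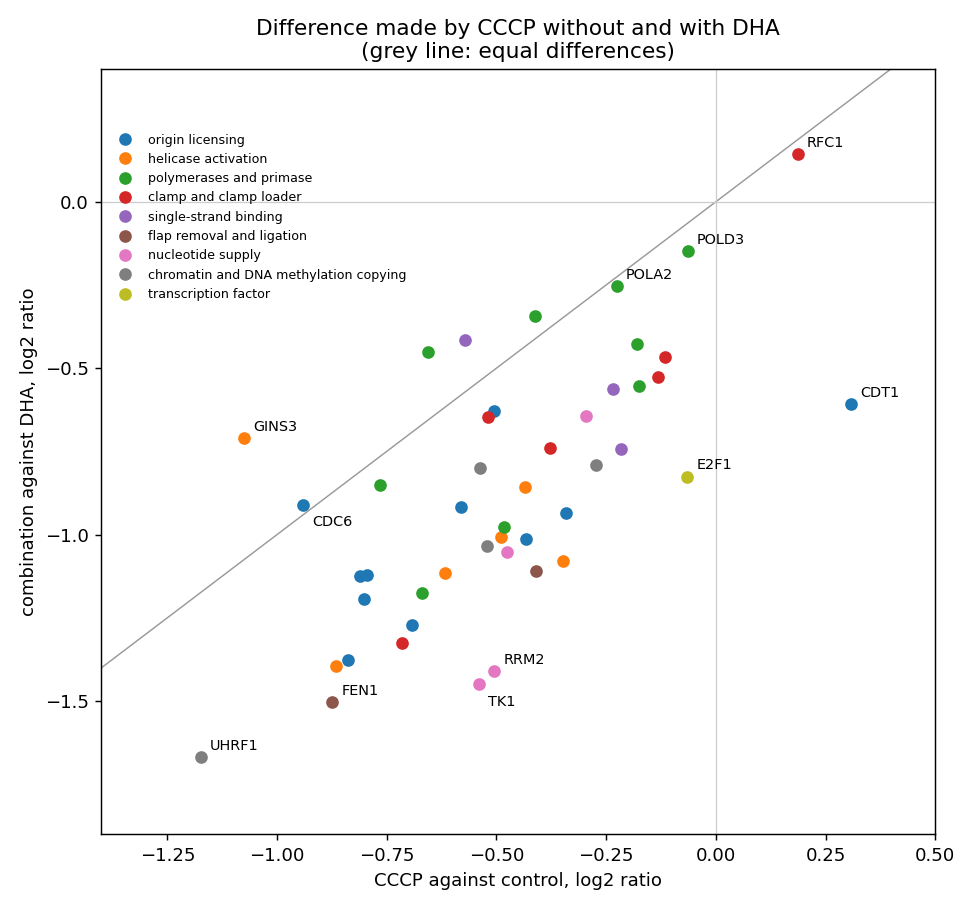
Each point is 1 of the 46 genes, coloured by role, with its log2 ratio of CCCP to control on the horizontal axis and of combination to DHA on the vertical axis. 41 points lie below the grey line of equal differences, CDT1, TK1 and RRM2 farthest from it, and GINS3 lies above it on the left.

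The departure from additivity, the log2 level with the combination minus those with CCCP and DHA plus that in control, was negative for 41 of 46 members. By the same arithmetic these are the 41 above whose ratio for CCCP was more negative with DHA present. The median departure was -0.41, against 0.0019 over measured protein-coding genes, of which 49.7% were negative. It was most negative for CDT1 (-0.92), TK1 (-0.91), RRM2 (-0.90), E2F1 (-0.76) and CDC45 (-0.73). It was positive for GINS3 (0.36), PRIM1 (0.20), RPA2 (0.16), POLD2 (0.07) and CDC6 (0.03). Group medians ran from -0.09 for polymerases and primase to -0.74 for nucleotide supply, apart from -0.76 for E2F1 alone. No residual degree of freedom is left to test this term. These values hold for the deposited scaling only, since the departure was not taken on rescaled libraries. Scaling to equal summed FPKM moved the median ratio of all genes to control by -0.094 with CCCP and -0.085 with DHA. With the combination it moved by -0.019.

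Since 2 of the 4 libraries had CCCP and 2 had DHA, limma-trend with the compounds as additive factors could test each of them over all 13678 measured genes. With only 1 residual degree of freedom, any departure from additivity counts in this fit as spread, and it was negative for most of the 46. No member passed a Benjamini-Hochberg adjusted p of 0.05 for either compound, where 13 genes (0.095%) passed for CCCP and 14 (0.102%) for DHA. UHRF1 came nearest for CCCP, with a log2 effect of -1.42, SE 0.17 and limma adjusted p = 0.0621, negative in both pairs of libraries. GINS2 came nearest for DHA, with a log2 effect of -0.58, SE 0.17 and limma adjusted p = 0.317. At an unadjusted p under 0.05 there were 37 of the 46 for CCCP, all negative, beside 14.5% of all genes tested in either direction, and 11 for DHA, all negative, beside 12.1%. With limma-voom on whole reads recovered from the FPKM, 29 of 46 members (63.0%) fell at the adjusted threshold for CCCP, beside 3.27% of all genes tested. For DHA 3 of 46 (6.52%) fell in that fit, beside 2.92%, a share of few genes from which nothing is read about the members. Within limma-trend, 9 of the 36 members with a mean of at least 5 FPKM fell for CCCP, beside 0.888% of genes. With no filter on low values 28 fell for CCCP, beside 0.89%, and 4 for DHA, beside 0.982%, in a fit that limma itself marked as unreliable. Limma without a trend passed 0 members for either compound. What sets these counts apart was not tested.

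Other genes of the same pathways, on lists that hold none of the 46, lay closer to control. Of 37 measured genes of the remaining replication machinery, 4 were at least 2-fold lower with the combination (ASF1B, TOP2A, CLSPN and RECQL4). Of all measured genes 5.44% were, and nothing is read about the list from so few genes. The list's median log2 ratio to control was -0.44 with the combination, -0.24 with CCCP and -0.02 with DHA. ASF1B, a histone chaperone that works with CAF-1, stood at 5.99 FPKM with the combination, 19.6 with CCCP, 20.7 with DHA and 24.3 in control. For 34 measured genes of nucleotide metabolism the median was -0.18 with the combination, -0.18 with CCCP and -0.02 with DHA. Among them DUT, which removes dUTP from the nucleotide pool, stood at 13.9 FPKM with the combination, 23.3 with CCCP, 24.5 with DHA and 26.6 in control. PRPS1 and DTYMK had log2 ratios of combination to control of -0.86 and -0.82.

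Regulators around E2F went in several directions. Of 18 measured, 3 were at least 2-fold lower with the combination, SKP2, CCNE2 and E2F2, beside 5.44% of all measured genes. Nothing is read about the list from this count of few genes. SKP2, a substrate receptor of a ubiquitin ligase that acts on cell cycle inhibitors, stood at 4.27 FPKM with the combination, 8.64 with CCCP, 10.4 with DHA and 12.9 in control. E2F5, counted among the repressive family members, stood at 4.53 FPKM with the combination, 2.97 with CCCP, 2.15 with DHA and 2.0 in control. The list's medians were -0.18 with the combination, -0.36 with CCCP and 0.0041 with DHA.

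Mitosis genes shared the low level with the combination but lay nearer to control with CCCP. Of 26 measured, 21 were at least 2-fold lower than control with the combination, beside 5.44% of all measured genes. Their median log2 ratio was -1.21. The median was -0.18 with CCCP, where the 46 replication and nucleotide genes had -0.50, and -0.25 with DHA, where they had -0.10. KIF20A, a mitotic kinesin, stood at 7.98 FPKM with the combination, 29.8 with CCCP, 22.5 with DHA and 36.0 in control. CCNA2, MKI67 and BIRC5 had log2 ratios to control of -1.64, -1.64 and -1.71 with the combination, and of -0.17, -0.24 and -0.39 with CCCP. With 1 library per group, the difference between these lists could not be tested.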

How the data were processed

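RNA was measured in 4 libraries of OMM2.3 cells, made with TruSeq RNA chemistry, which does not mark strand, per the labels' protocols. The authors deposited 1 FPKM value per gene and library, per the file headers. For the aligner, the counter and the build, nothing is given in the sources used here. Gene IDs matched GENCODE 29 (Ensembl 94, GRCh38) for 58735 of 58735 genes. With GENCODE exon lengths, 100% of deposited FPKM values above 0 came out as whole reads (tolerance 0.01). Ratios were taken on log2(FPKM + 0.5), with a size rule of 2-fold, for the 13678 genes that reached 1 FPKM in any library. Intervals are exact Clopper-Pearson binomial intervals (95%) of recovered reads. No p-value was computed between single libraries. limma 3.58.1 (limma-trend across all measured genes, Benjamini-Hochberg adjustment) in R 4.3.3 tested each compound additively. The fit was also run on simulated counts with additive effects only, which does not cover genes that depart from additivity. Other steps used Python 3.11.15, pandas 2.3.3, numpy 2.4.6, scipy 1.17.1 and matplotlib 3.10.9. Of each other list, up to 4 genes whose mean reached 1 FPKM were named, those with the largest absolute log2 ratio of combination to control. A result of the nucleotide metabolism list is not reported here. Members and lists were chosen with earlier results of these data known. Alternatives covered the pseudocount, filter, scaling, size rule and count model.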

Additional observations from a re-analysis of the deposited data

Results flagged for a closer look

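CDT1 was lower in one pair of libraries and higher in the other under the same contrast. With CCCP it was lower when DHA was present and higher when DHA was absent, and the log2 difference between these 2 readings was -0.92. The same arithmetic gives -0.92 for DHA with and without CCCP, since both are the departure from additivity. RFC4 was lower with DHA when CCCP was present and higher when it was absent, with a log2 difference of -0.35. With 1 library per group neither difference was tested.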

How the results depend on the processing

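Under other pseudocounts, filters and scalings the median log2 ratio of the 46 genes to control stayed between -1.04 and -0.91 with the combination, between -0.60 and -0.47 with CCCP, and between -0.19 and -0.08 with DHA. The same settings gave 16 to 26 members at least 2-fold lower than control with the combination. With CCCP the count of 2 became 1 at a pseudocount of 1 and 3 with libraries rescaled to equal summed FPKM. It became 1 with a mean of at least 5 FPKM, a filter that left out GINS3 (mean of 3.32 FPKM). A size rule of 1.5-fold gave 38 members for the combination (12.7% of all measured genes met it) and 15 for CCCP (6.46%). It gave 18 for the combination against CCCP (12.4%) and 35 for the combination against DHA (9.38%). In the additive fit, where no member passed, the members passing for CCCP were 9 with a mean of at least 5 FPKM (0.888% of all genes fell there), 28 with no filter (0.89%) and 29 with limma-voom on recovered reads (3.27%). For DHA they were 4 with no filter (0.982%) and 3 with limma-voom (2.92%), and the cause was not tested. Without a filter limma warned that most residual variances were exactly 0, so those counts are unreliable. Scaling to equal summed FPKM moved the median of all genes by -0.019 with the combination, -0.094 with CCCP and -0.085 with DHA. It turned the direction of 7 members in DHA against control (E2F1, GMNN, MCM2, MCM7, ORC1, POLA1 and POLE2). No paired analysis was possible because each group has 1 library. No library could be left out for the same reason.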
